A study of Mus musculus with 20 samples.

Results

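The comparison described here is testosterone against vehicle in the kidneys of ARLmon/Y mice. Its members are the 5 libraries labelled as ARLmon with testosterone (GC078612 to GC078616) and the 5 labelled as ARLmon with vehicle (GC078617 to GC078621), 10 of the 20 libraries of the study, taken by the library codes of the deposited count tables. All 4 groups of the study are C57BL/6J males that were orchidectomised and then treated for 4 days. The genotype of 2 groups is labelled ARLmon/Y and that of the other 2 wild type, and the labels do not describe the ARLmon allele. The 10 wild type libraries, 5 with vehicle and 5 with testosterone, serve here only to show where ARLmon differs. Kidney RNA was sequenced with a stranded mRNA kit as a bulk sample, so a lower value can mean fewer cells of a type or less RNA per cell, which cannot be told apart. The labels give no dose and leave unsaid if separate animals lie behind the libraries, so p-values measure only the spread between these libraries, which may be technical.

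Androgens such as testosterone act on transcription: hormone-bound complexes sit on androgen response elements of DNA and recruit coregulators that raise or lower nearby genes. In the mouse kidney the proximal tubule, above all its straight part, is the main androgen target, with Kap, Odc1 and Gusb as its classical androgen-raised genes. Orchidectomy removes the main source of testosterone, so the vehicle groups show the kidney with little circulating androgen.

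The stretches before the RefSeq start sites of Slco1a1 and Atp11a are shown because both genes rose strongly in wild type while one was near silent and the other well expressed in ARLmon. Those of 4 interferon response genes are shown because that group had the lower values with testosterone described below. All were taken from RefSeq (GRCm38.p6) and end at the base before its start site, which can differ by some bases from that of GENCODE. Slco1a1 at chr6:141946963-141947062 (minus strand) and Atp11a at chr8:12756916-12757015 (plus strand) hold 100 bases each, with TATAA in capitals in Slco1a1 and GGGCGG in Atp11a, on either strand.
Slco1a1: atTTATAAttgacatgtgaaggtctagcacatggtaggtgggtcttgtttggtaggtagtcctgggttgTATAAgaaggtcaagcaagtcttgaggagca
Atp11a: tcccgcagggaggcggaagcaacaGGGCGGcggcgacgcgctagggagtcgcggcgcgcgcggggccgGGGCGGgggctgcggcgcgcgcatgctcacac

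The next 4 hold 140 bases, with GAAANNGAAA, the core of the interferon-stimulated response element, in capitals on either strand and overlapping matches joined. They are Ifit1 at chr19:34640749-34640888 (plus), Isg15 at chr4:156200819-156200958 (minus), Bst2 at chr8:71537473-71537612 (minus) and Igtp at chr11:58199416-58199555 (plus).
Ifit1: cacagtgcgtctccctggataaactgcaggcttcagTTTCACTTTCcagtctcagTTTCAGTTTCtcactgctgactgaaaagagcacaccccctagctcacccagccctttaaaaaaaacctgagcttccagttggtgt
Isg15: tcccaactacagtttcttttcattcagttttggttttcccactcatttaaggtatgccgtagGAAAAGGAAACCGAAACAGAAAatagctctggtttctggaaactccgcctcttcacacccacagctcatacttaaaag
Bst2: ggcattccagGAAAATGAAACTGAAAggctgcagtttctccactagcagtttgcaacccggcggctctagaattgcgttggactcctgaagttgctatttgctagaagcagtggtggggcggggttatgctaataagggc
Igtp: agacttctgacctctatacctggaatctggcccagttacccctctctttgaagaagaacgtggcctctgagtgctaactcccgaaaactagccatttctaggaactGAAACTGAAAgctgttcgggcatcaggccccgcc

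All motifs were searched on both strands of the 250 bases before the start of 27025 genes. GAAANNGAAA occurs in 3.46% of them, TATAA in 25.8%, GGGCGG in 35.4%, the androgen response element half-site AGAACA in 18.2% and the full element AGNACANNNTGTNCT in 0.0740%. None of the 6 genes has AGAACA or the full element in that window, which says only that these letters are not in it.

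Total counts ran from 8342000 to 38101526 over the 20 libraries. Those in the 10 ARLmon libraries ran from 10236738 (GC078612) to 18609328 (GC078615), and 19374 to 20881 genes had reads. The labelled tissue was checked by its markers, and all 12 proximal tubule genes were detected, with a summed level of 16801 to 20751 CPM with vehicle and 17186 to 19855 with testosterone (CPM, that is counts over the library size after TMM correction). The libraries did not separate by treatment. On the first principal component of the 10 libraries, which held 39.5% of the variance, vehicle library GC078618 lay at 55.9 and testosterone library GC078615 at -40.1, with the other 8 between -16.9 and 25.6. On the second (13.2%), testosterone library GC078612 lay at 32.5 and the others between -16.1 and 19.8. These 3 libraries are named below wherever they carry a value.

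No gene passed the test for testosterone against vehicle in ARLmon kidney. Of 15549 genes tested, edgeR's quasi-likelihood test called 0 (percent called 0, adjusted p below 0.05 after Benjamini-Hochberg adjustment), and the smallest adjusted p was 0.774. An unadjusted p below 0.05 was reached by 813 genes (5.23%), 307 higher and 506 lower with testosterone, where 777.45 are expected with no difference. The counts called were 0 as well by DESeq2 (844 below 0.05 unadjusted) and by limma-voom (808). In wild type the same fit called 2444 genes (15.7%), of which 1455 rose (9.36%) and 989 fell (6.36%). The count in ARLmon was also 0 without GC078612, GC078615 and GC078618 together, with 279 genes (1.76%) at an unadjusted p below 0.05.

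The median SE was 0.16 on the log2 scale in both genotypes. The fit shares a single estimate of spread per gene over the 4 groups, so these SEs are alike largely by design. They do not compare the spread within the genotypes. For 13827 genes (88.9%) the 95% interval of the ARLmon difference lay inside a 2-fold change in either direction, and for 9672 (62.2%) inside 1.5-fold. A fitted difference of 2-fold or more was found for 102 genes (0.656%), of which 19 reached a mean of 5 CPM in the higher group, against 375 such genes in wild type. The 5 testosterone libraries lay wholly above the 5 vehicle libraries for 61 genes (0.392%) and wholly below for 60 (0.386%). In wild type these counts were 1297 (8.34%) and 655 (4.21%).

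The classical androgen-raised genes had overlapping values in the ARLmon groups. For Odc1 these lay far below those of wild type with testosterone. Odc1 (chromosome 12, 17544794 to 17551505, GRCm38, GENCODE M21 here and throughout) encodes ornithine decarboxylase, which makes the first polyamine. It stood at 233, 213, 192, 168 and 204 CPM in vehicle libraries GC078617 to GC078621 and at 165, 192, 168, 184 and 232 in testosterone libraries GC078612 to GC078616, an order kept below. The groups overlapped, and the highest value of each was nearly the same. The log2 difference, testosterone minus vehicle, was -0.10 ± 0.12 (SE here and throughout, n = 5 per group; 95% interval -0.34 to 0.14; edgeR adjusted p = 0.796). In wild type Odc1 rose from 206 ± 32.4 to 1509.7 ± 119 CPM (mean ± SD, n = 5; log2 2.87 ± 0.12, edgeR adjusted p = 9.15e-13).

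Kap (chromosome 6, 133849851 to 133853762), which encodes a proximal tubule protein named for its androgen regulation, stood at 5705, 15542, 9945, 5494 and 4236 CPM with vehicle and at 7242, 5545, 6425, 8159.8 and 4881 with testosterone. GC078618 and GC078619 were the highest vehicle libraries, and the testosterone values lay within the vehicle range. Its log2 difference came to -0.34 ± 0.31 (interval -0.99 to 0.30; edgeR adjusted p = 0.776), and without GC078618 it was 0.02. Its response differed from that of wild type by -1.76 ± 0.44 (edgeR adjusted p = 0.0207).

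Hsd17b11 (chromosome 5, 103989762 to 104021919), which encodes a hydroxysteroid dehydrogenase, stood at 113, 134, 117, 100.3 and 111 CPM with vehicle and at 111, 106, 104, 99.0 and 115 with testosterone. All 10 values lay in a narrow band, and the log2 difference was -0.10 ± 0.09 against a rise of 2.89 ± 0.10 in wild type. Gusb (chromosome 5, 129989011 to 130003049), which encodes lysosomal beta-glucuronidase, stood at 37.9, 39.4, 35.0, 34.0 and 33.9 CPM with vehicle and at 35.4, 28.8, 34.8, 29.7 and 33.5 with testosterone. Its groups overlapped, with a log2 difference of -0.15 ± 0.10 (interval -0.37 to 0.06) in ARLmon and a rise of 1.78 ± 0.10 in wild type. Nudt19 (chromosome 7, 35547185 to 35556304), which encodes a coenzyme A diphosphatase, stood at 244, 384, 262, 174 and 203 CPM with vehicle and at 280.4, 221, 244, 386 and 299 with testosterone. GC078618 and GC078615 held its highest values in either group, and the log2 difference was 0.17 ± 0.18 against a rise of 2.96 ± 0.20 in wild type. The responses of Odc1, Hsd17b11, Gusb and Nudt19 differed between genotypes by -2.97, -3.00, -1.93 and -2.78 (edgeR adjusted p = 2.69e-10, 3.91e-12, 3.13e-08 and 8.03e-07). Reads of Nudt19 can be shared with an antisense gene, since the strand setting of the counting is not given in the sources used here.

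**Figure D1:**
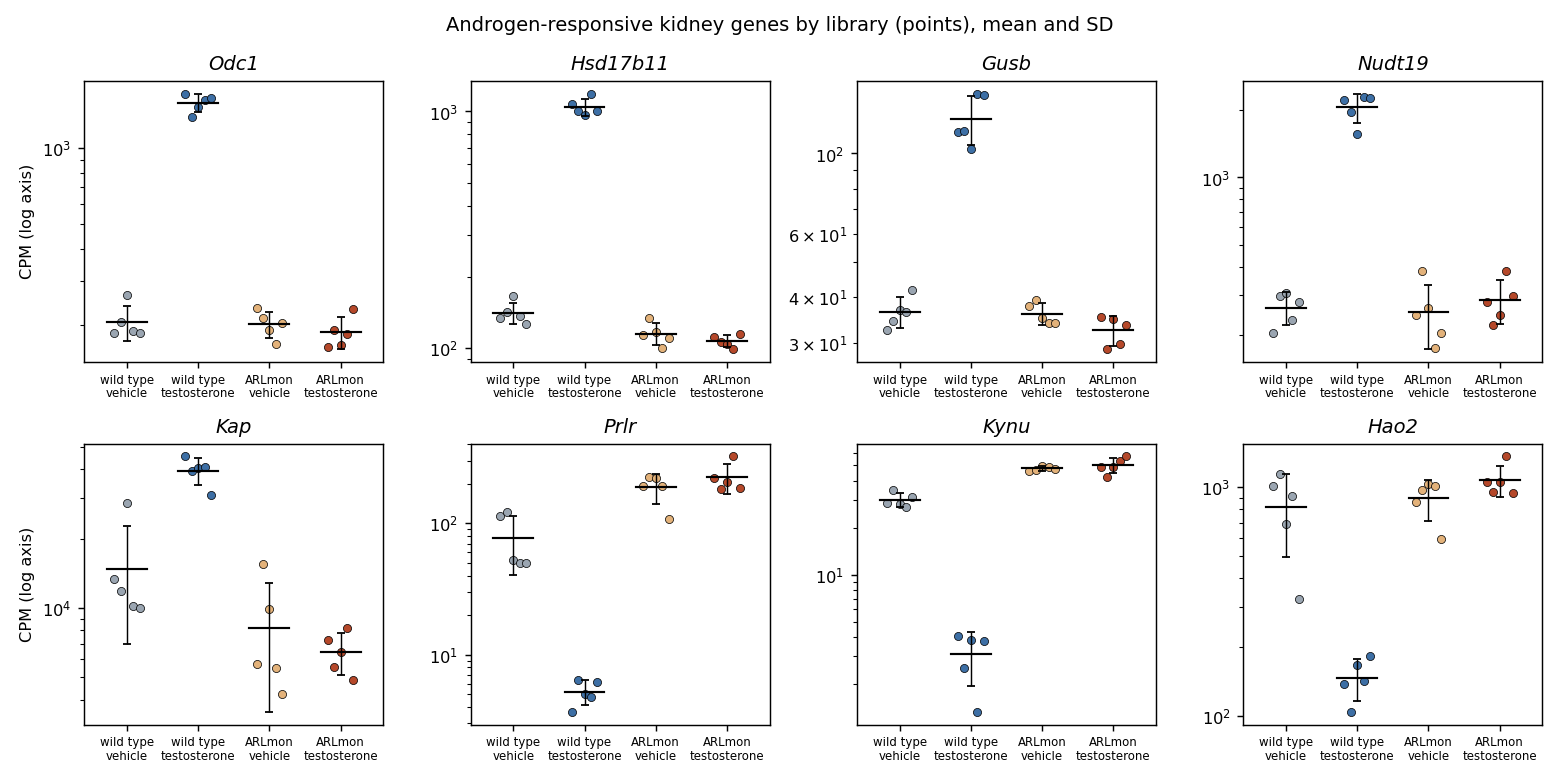
CPM per library on a log axis for 5 genes that rose and 3 that fell with testosterone in wild type. Points are libraries, horizontal lines group means and bars the SD (n = 5 per group). The ARLmon groups overlap for each gene, while the wild type groups stand apart, as for Odc1 at 206 and 1509.7 CPM.

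Several androgen-raised genes were near silent in both ARLmon groups. Slco1a1 (chromosome 6, 141907282 to 141946962), which encodes an organic anion transporter, stood at 0.467, 0.428, 0.134, 0.574 and 0 CPM with vehicle and at 0.356, 0.234, 0.374, 0.253 and 0.523 with testosterone, 23 and 26 reads in all. The groups overlapped, and the log2 difference was 0.14 ± 0.51 (interval -0.93 to 1.21; edgeR adjusted p = 0.939). Wild type means were 19.5 ± 3.14 CPM with vehicle and 1431 ± 274 with testosterone, so neither ARLmon group reached even the wild type vehicle level (log2 -5.94 ± 0.30 between the vehicle groups, edgeR adjusted p = 1.96e-11). Synpr, which encodes a synaptic vesicle protein and rose from 0.0412 to 9.69 CPM in wild type, had 0 reads in all 10 ARLmon libraries. A count of 0 allows up to 3 reads over a group, or 0.0391 CPM with testosterone and 0.0400 with vehicle, and such floors cover counting error only. Cntnap5a had 0 reads with vehicle and 1 with testosterone, both under that floor. The main test of the difference between the responses of the genotypes called neither Synpr nor Cntnap5a, though at least 1 alternative did. The count of such genes given below thus leaves both out.

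Of the other largest wild type rises, the lipase-like gene Lipo2 had 10 reads with vehicle and 4 with testosterone, and Ctxn3 had 24 and 22. Rnf180, which encodes a ubiquitin ligase, stood at a mean of 0.440 CPM with vehicle and 0.450 with testosterone. The chemokine gene Ccl28 stood at 1.09 ± 0.864 and 1.29 ± 0.378 CPM, and Angptl7, of the angiopoietin-like family, at 1.73 ± 0.632 and 2.24 ± 0.851. At these depths the intervals are wide, reaching -3.12 to 0.66 on the log2 scale for Lipo2. Even so, the responses differed from wild type by -6.27 for Lipo2, -5.58 for Ctxn3, -4.65 for Rnf180, -4.48 for Ccl28 and -3.95 for Angptl7, with edgeR adjusted p of 0.001, 1.64e-06, 5.43e-05, 0.000194 and 9.59e-07.

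Enzymes of steroid, fatty acid and alcohol metabolism likewise had overlapping values in ARLmon. Acsm3, an acyl-CoA synthetase gene, stood at 13.1 ± 5.46 CPM with vehicle and 14.1 ± 2.48 with testosterone (log2 0.11 ± 0.24; wild type rise 3.96 ± 0.25). Cyp4a12a, which encodes a fatty acid hydroxylase, stood at 2.94 ± 1.22 and 2.23 ± 0.765 (log2 -0.45 ± 0.33; wild type 3.72 ± 0.27). For Srd5a2, which encodes a steroid reductase that makes dihydrotestosterone, the means were 1.53 ± 0.537 and 1.62 ± 0.514 CPM (log2 0.12 ± 0.35; wild type 3.41 ± 0.31), with exons shared with a gene on the same strand. Cyp2e1, a cytochrome P450 gene, and Adh1, an alcohol dehydrogenase gene, differed by -0.05 ± 0.15 and -0.06 ± 0.18 in ARLmon. Of the 22 androgen-induced kidney genes, 20 rose and 0 fell in wild type (median log2 2.10), whereas in ARLmon 13 were higher and 9 lower, none called, with a median of 0.12 beside 0.01 over all genes tested. The response differed between genotypes for 18 of the 22, against 741 of all genes (4.77%).

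The genes lowered by testosterone in wild type that are named here were not called in ARLmon, and their groups overlapped. Prlr (chromosome 15, 10177238 to 10349180), the prolactin receptor gene, stood at 194, 227, 223, 192 and 108 CPM with vehicle and at 220.4, 182, 208, 323 and 186 with testosterone. GC078621 was the lowest and GC078615 the highest, and the groups overlapped (log2 0.25 ± 0.25, interval -0.28 to 0.77; edgeR adjusted p = 0.788). In wild type it fell from 77.7 ± 37.1 to 5.23 ± 1.13 CPM (log2 -3.89 ± 0.31, edgeR adjusted p = 9.15e-09). Kynu (chromosome 2, 43555329 to 43682715), the gene of kynureninase, an enzyme that breaks down tryptophan, stood at 46.1, 46.9, 49.7, 49.0 and 47.2 CPM with vehicle and at 48.9, 42.4, 49.1, 53.2 and 57.0 with testosterone. The 10 values lay close together, with a log2 difference of 0.07 ± 0.14 against -3.32 ± 0.18 in wild type, where it fell.

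Hao2 (chromosome 3, 98874521 to 98893239), which encodes a peroxisomal hydroxyacid oxidase, stood at 857, 973, 1032, 1009 and 595 CPM with vehicle and at 1051, 949, 1049.6, 1361 and 946 with testosterone. Again GC078621 was lowest and GC078615 highest, with a log2 difference of 0.26 ± 0.24 against -2.48 ± 0.25 in wild type, where it fell. Gc, the vitamin D-binding protein gene, stood at 129 ± 20.9 and 129 ± 49.9 CPM, and the potassium channel-interacting protein gene Kcnip2 at 11.2 ± 0.758 and 9.21 ± 1.46. The organic anion transporter gene Slc22a8 stood at 1245 ± 188 and 1055 ± 116 CPM (log2 -0.24 ± 0.23; wild type -1.80 ± 0.23). The glucuronosyltransferase gene Ugt1a2 stood at 239.6 ± 61.0 and 229.8 ± 38.2 CPM in ARLmon, far above the 5.06 ± 1.94 of wild type vehicle, though its reads can be shared with the overlapping genes of the Ugt1a cluster, as those of Prlr can with Gm21973. Of the 13 androgen-lowered kidney genes, 11 fell and 1 rose in wild type (median log2 -3.07). In ARLmon 9 were higher and 4 lower, none called, with a median of 0.07, and the response differed between genotypes for 10.

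Some straight-part proximal tubule genes had higher testosterone values in ARLmon that no test called. Atp11a (chromosome 8, 12757014 to 12868728), which encodes a phospholipid flippase, stood at 225, 192, 230.2, 267 and 132 CPM with vehicle and at 294, 338, 328, 615 and 199 with testosterone. GC078615 was far above the rest, GC078616 lay within the vehicle range, and the other 3 lay above every vehicle library. The log2 difference was 0.76 ± 0.25 (unadjusted p = 0.00627, edgeR adjusted p = 0.774, higher than every vehicle library in 4 of 5). Without GC078615 it was 0.47. In wild type Atp11a rose from 459 ± 161 to 2981 ± 285 CPM, and the difference between the responses was -1.93 ± 0.36 (edgeR adjusted p = 0.00161).

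Slc7a13, which encodes an amino acid transporter of this segment, stood at 1.48, 1.37, 1.01, 1.15 and 1.26 CPM with vehicle and at 0.889, 2.11, 3.37, 6.28 and 1.31 with testosterone. GC078615 was highest and GC078612 lowest of all 10. Its log2 difference came to 1.22 ± 0.45 (unadjusted p = 0.0126, edgeR adjusted p = 0.774) and 0.64 without GC078615. These levels were a small part of the wild type means of 169.8 CPM with vehicle and 1006 with testosterone. Slc22a30, an organic anion transporter gene, stood at 10.1, 11.4, 8.67, 7.92 and 6.82 CPM with vehicle and at 8.36, 9.90, 12.6, 24.6 and 11.2 with testosterone, with GC078615 far above the others (log2 0.60 ± 0.30, unadjusted p = 0.0624, edgeR). Without GC078615 that difference came to 0.24. Slc5a8, a sodium-coupled monocarboxylate transporter gene, differed by 0.40 ± 0.20, Cyp4b1 by 0.31 ± 0.17 and Cyp2d9 by 0.42 ± 0.19, the last with GC078612 highest at 32.7 CPM. These came to 0.25 and 0.19 without GC078615 for Slc5a8 and Cyp4b1, and 0.25 without GC078612 for Cyp2d9. The difference between the responses of the genotypes was called for Slc22a30, Slc5a8 and Cyp4b1, but not for Slc7a13 or Cyp2d9. With each library left out in turn, that of Slc7a13 ran from -1.93 to -1.14 (edgeR adjusted p 0.0217 to 0.319). For Cyp2d9 it ran from -0.28 to 0.05 (edgeR adjusted p 0.631 to 0.982), so its response was not shown to differ from that of wild type.

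Slc7a12, an amino acid transporter gene that fell in wild type (log2 -3.07 ± 0.67), pointed the other way in ARLmon. It stood at 28.2, 34.1, 32.7, 37.9 and 9.90 CPM with vehicle and at 46.6, 47.6, 48.0, 204 and 23.9 with testosterone. GC078615 stood far above the next value, GC078621 was the lowest of all and GC078616 lay within the vehicle range. The log2 difference was 1.38 ± 0.52 (unadjusted p = 0.0149, edgeR adjusted p = 0.774) and 0.54 without GC078615. Of the 12 straight-part markers 10 were higher and 2 lower, with 2 at an unadjusted p below 0.05 and a median of 0.22 (0.04 without GC078615). Without GC078618 the median was 0.32, with 11 higher. Without GC078612, GC078615 and GC078618 together it was 0.14, with 11 higher. Relative to the mean of the 10 libraries, the median log2 level of these markers was 0.55 in GC078615 and -0.61 in GC078621, against -0.21 to 0.30 in the other 8. The 9 markers of the convoluted part lay between -0.12 and 0.17 in every library. Whether the amount of straight-part tissue in a library bears on these values was not tested.

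Over all genes that testosterone moved in wild type, the ARLmon values leaned slightly the same way. The 2 contrasts share no library. The 1455 genes raised in wild type had a median log2 difference of 0.60 there and 0.08 in ARLmon, where 1012 (69.6%) were higher, against 51.2% of all genes. The 989 lowered genes had medians of -0.59 and -0.06, and 650 (65.7%) were lower in ARLmon, against 48.8% of all genes. Among the raised genes 61 (4.19%) had an unadjusted p below 0.05 and were higher, beside 1.97% of all genes, and among the lowered genes 47 (4.75%) were lower, beside 3.25%. None was called. Genes of one sample are not independent, so these shares carry no test.

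The lean changed with single libraries, scaling and weights. Without wild type vehicle library GC078605 it was larger, with 73.2% of raised genes higher and 73.1% of lowered genes lower. Without GC078602 these shares were 72.2% and 69.8%. With library size alone the raised share was larger and the lowered share smaller, at 75% and 57.6%. The same held with the deposited log2 values, at 78.3% and 56.1%. In these settings the median ARLmon difference of all genes was 0.03 and 0.04, against 0.01 in the main fit, and the genes called in wild type differed. The settings that follow made both shares smaller. Without GC078615 the medians were 0.03 for the raised and -0.02 for the lowered genes, and the shares 63% and 55.6%. Without wild type vehicle library GC078604, which enters only through the wild type calls, the filter and the shared spread, the lowered median was -0.02, against -0.09 without GC078605 or GC078612, and the shares 62.1% and 54.3%. With sample quality weights in limma-voom, which give discordant libraries less say, the shares were 56% and 48.7%.

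For most genes with a strong wild type response the ARLmon interval excluded a response of comparable size. Of the 340 genes raised at least 2-fold in wild type, 216 (63.5%) had an upper ARLmon bound below 50% of the wild type log2 rise, and of the 182 lowered at least 2-fold, 130 (71.4%) were bounded in the same way. The median of the 340 was 1.49 in wild type and 0.14 in ARLmon. The wild type values were taken as fixed here and were chosen by their own test, which favours large ones. The responses of the genotypes differed for 741 of 15549 genes (4.77%) by edgeR's test of that difference. Of these, 513 had risen and 217 had fallen in wild type, 11 had done neither, and 387 had opposite signs in the genotypes. Their ARLmon differences centred near 0, with a median of 0.01 and 389 (52.5%) above 0. A test of the difference also favours opposite signs, so the 387 do not show a reversed response. The size of the response was larger in ARLmon for 6 of the 741.

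**Figure D2:**
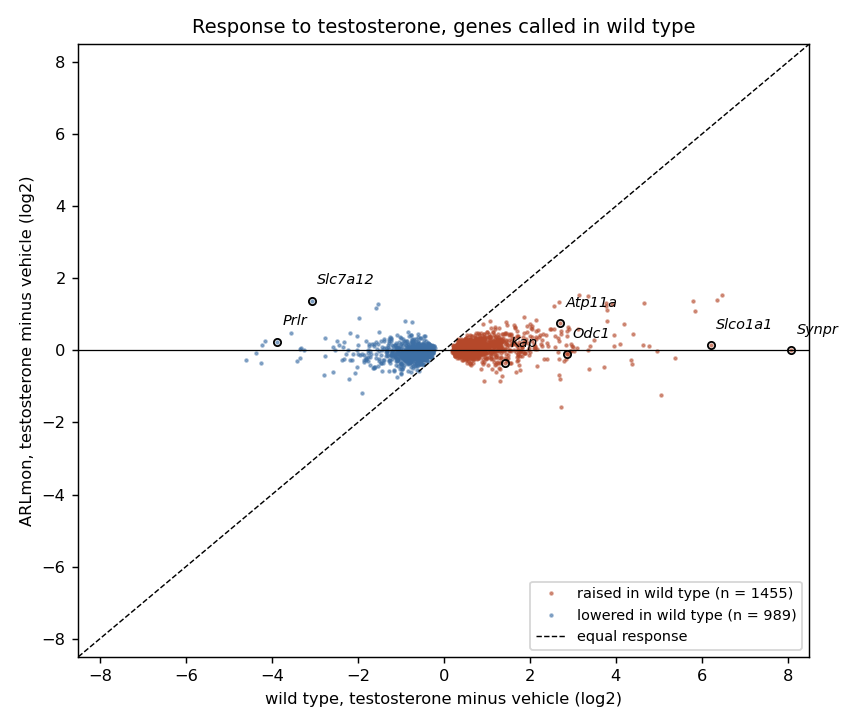
Log2 difference of testosterone minus vehicle in ARLmon (vertical) against wild type (horizontal) for the 1455 genes that rose (red) and the 989 that fell (blue) in wild type, with 7 genes circled and named. The dashed line marks equal responses. Most points lie near the horizontal line at 0, and Synpr, with 0 reads in ARLmon, is drawn at 0.

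The genes with the smallest p that were higher with testosterone in ARLmon included 3 of 8 that testosterone changed in wild type, Atp11a, Chsy1 and Slc14a1, where 15.7% of all genes changed there. Adamts1 (chromosome 16, 85793827 to 85803113), which encodes a secreted metalloproteinase, stood at 32.6, 22.8, 37.4, 33.6 and 31.6 CPM with vehicle and at 73.3, 48.3, 51.5, 76.2 and 35.7 with testosterone. GC078612 and GC078615 were highest, and only GC078616, below the highest vehicle library, made the groups overlap. The log2 difference was 0.85 ± 0.21 (unadjusted p = 0.000515, edgeR adjusted p = 0.774), beside 0.15 ± 0.21 in wild type, and 0.42 without GC078612, GC078615 and GC078618. Camsap1, which encodes a microtubule minus-end protein, stood at 13.6, 12.3, 13.7, 14.1 and 12.7 CPM with vehicle and at 16.4, 16.6, 16.6, 19.1 and 19.996 with testosterone. Its groups did not overlap, with a log2 difference of 0.42 ± 0.11 (unadjusted p = 0.00106, edgeR adjusted p = 0.774).

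Pde5a, which encodes the cyclic GMP phosphodiesterase, stood at 5.69, 4.53, 5.51, 5.51 and 4.73 CPM with vehicle and at 7.65, 7.56, 8.08, 8.46 and 6.40 with testosterone, again without overlap (log2 0.55 ± 0.17). Its wild type value was nearly as large (0.44 ± 0.17, edgeR adjusted p = 0.0809). Wdr90 differed by 0.29 ± 0.09 without overlap, the RNA helicase gene Ddx17 by 0.30 ± 0.10 and Chsy1, a chondroitin synthase gene that rose by 0.72 ± 0.12 in wild type, by 0.37 ± 0.12. The urea transporter gene Slc14a1 stood at 10.4, 9.50, 11.7, 10.2 and 7.75 CPM with vehicle and at 11.7, 15.7, 14.5, 11.5 and 11.96 with testosterone. GC078615 lay below and GC078612 just above the highest vehicle library, so the groups overlapped by 1 library, and the log2 difference was 0.40 ± 0.13. In wild type Slc14a1 fell by 0.47, and the responses differed by 0.87 ± 0.19 (edgeR adjusted p = 0.0081). Reads of Wdr90 can be shared with Rhot2 on the same strand, and those of Pde5a, Chsy1 and Ddx17 with antisense genes.

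Of the 8 smallest p among the lower genes, 6 belonged to interferon response genes. The other 2 were Scand1, a gene with a SCAN domain, and Sec61g, which encodes a subunit of the channel through which new proteins enter the endoplasmic reticulum. Scand1 stood at 4.83, 11.98, 14.6, 6.49 and 17.5 CPM with vehicle and at 4.27, 3.98, 1.95, 1.77 and 4.44 with testosterone. Its groups did not overlap, though 4.83 in GC078617 was close to the highest testosterone value (log2 -1.77 ± 0.47, edgeR adjusted p = 0.774). Sec61g stood at 29.8, 37.5, 28.7, 24.3 and 30.6 CPM with vehicle and at 20.7, 20.97, 22.1, 17.5 and 26.1 with testosterone, with only GC078616 above the lowest vehicle library. Its log2 difference was -0.49 ± 0.13, and it differed by -0.71 ± 0.19 from the wild type response (edgeR adjusted p = 0.0304). That call was lost without any one of 9 libraries, with an adjusted p of up to 0.0756. Reads of Scand1 can be shared with Cnbd2 on the other strand.

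Interferon response genes, which cells switch on after interferon or virus sensing, had lower values with testosterone in ARLmon, with no member called. All 40 members had a log2 difference below 0, where 48.8% of all genes did. Without GC078617, 34 of the 40 were below 0, and without GC078612, 37 were. The median was -0.51, against 0.01 over all genes, and 25 had an unadjusted p below 0.05, against 3.25% of all genes lower at that p. In wild type the median was -0.30, 0 of the 40 changed, and the response differed between genotypes for 0. Of the 40, 1 had groups that did not overlap, Isg15 (0.386% of all genes had vehicle wholly above).

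Igtp (chromosome 11, 58199556 to 58207591), with the response element core shown above, and Irgm1 (chromosome 11, 48861968 to 48871683) encode interferon-inducible GTPases. Igtp stood at 45.0, 45.8, 21.1, 54.1 and 36.3 CPM with vehicle and at 23.6, 25.3, 20.1, 20.6 and 21.8 with testosterone. GC078619 lay within the testosterone range and the other 4 vehicle libraries above it. Igtp differed by -0.86 ± 0.20 (unadjusted p = 0.000275, edgeR adjusted p = 0.774), and -1.02 without GC078619 (edgeR adjusted p = 0.0548). Irgm1 stood at 115, 87.9, 56.0, 84.4 and 72.9 CPM with vehicle and at 53.6, 60.3, 51.2, 60.7 and 57.9 with testosterone. Again GC078619 alone was within the testosterone range (log2 -0.55 ± 0.13, unadjusted p = 0.000372, edgeR adjusted p = 0.774). Igtp shares exons with Irgm2 on the same strand, so its reads may be split.

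Irf7, which encodes a transcription factor of the type I interferon response, stood at 61.4, 66.6, 24.7, 29.6 and 36.3 CPM with vehicle and at 23.5, 26.9, 25.3, 17.7 and 17.6 with testosterone. GC078617 and GC078618 were the highest, and the lowest vehicle library lay within the testosterone range (log2 -0.98 ± 0.25). Bst2, which encodes the membrane protein tetherin, stood at 33.6, 48.2, 21.8, 23.4 and 39.5 CPM with vehicle and at 20.3, 21.9, 20.2, 10.9 and 14.4 with testosterone. GC078615 and GC078616 were lowest, and the groups overlapped by a narrow margin (log2 -0.93 ± 0.24). Ifit1, which encodes an RNA-binding antiviral protein, stood at 30.5, 20.3, 8.53, 12.1 and 14.1 CPM with vehicle and at 8.18, 8.49, 8.60, 8.36 and 5.82 with testosterone. GC078617 was highest, and GC078619 lay within the testosterone range (log2 -1.11 ± 0.30).

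Isg15, which encodes a ubiquitin-like modifier, stood at 19.1, 12.9, 6.32, 5.51 and 8.63 CPM with vehicle and at 5.25, 5.45, 5.39, 5.42 and 4.05 with testosterone. Every testosterone value lay below every vehicle value, with GC078620 and GC078613 nearly equal (log2 -1.03 ± 0.31). The GTPase gene Mx1 differed by -1.12 ± 0.35, whereas the RNA sensor gene Ifih1 differed by -0.02 ± 0.16. Unadjusted p were 0.000854 for Irf7, 0.00093 for Bst2, 0.00121 for Ifit1, 0.00342 for Isg15, 0.00436 for Mx1 and 0.885 for Ifih1 (edgeR, adjusted p 0.774 for the first 5 and 0.972 for Ifih1). Irf7 overlaps Phrf1 on the other strand.

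The libraries of both groups were uneven in these genes. GC078617 held the highest value of the 10 libraries for 25 of the 40 genes, and GC078616 the lowest for 22 and GC078615 for 11. Relative to the mean of the 10 libraries, the median of the 40 genes was 0.65 in GC078617, 0.44 in GC078618, 0.13 in GC078620, 0.09 in GC078621 and -0.25 in GC078619, all vehicle. With testosterone it was -0.07 in GC078613, -0.16 in GC078612, -0.21 in GC078614, -0.34 in GC078615 and -0.52 in GC078616. Vehicle library GC078619 thus lay among the testosterone libraries. Without GC078617 the list median was -0.42, with 17 genes lower at an unadjusted p below 0.05, and without GC078612, GC078615 and GC078618 it was -0.51 with 19. With sample quality weights it was -0.37 with 17.

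**Figure D3:**
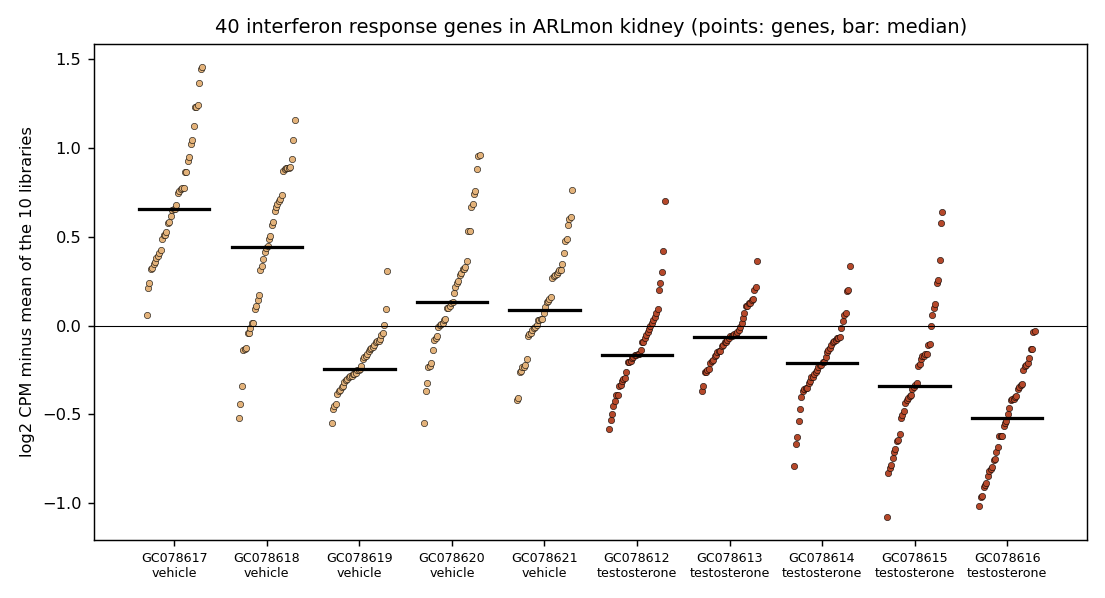
Log2 CPM of 40 interferon response genes in each ARLmon library, minus each gene's mean over the 10 libraries; points are genes in rank order and bars medians. Vehicle libraries (orange) run from 0.65 in GC078617 to -0.25 in GC078619, and testosterone libraries (red) from -0.07 to -0.52.

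Of these genes, 6 chosen with their values known were also compared between ARLmon vehicle and wild type vehicle, a comparison that shares the ARLmon vehicle libraries and is therefore set side by side only (edgeR called 4.37% of all genes in it). That difference was 1.12 ± 0.20 for Igtp, 0.66 ± 0.13 for Irgm1, 1.39 ± 0.25 for Irf7, 1.12 ± 0.24 for Bst2, 1.72 ± 0.30 for Ifit1 and 1.49 ± 0.31 for Isg15. The response element core was in the 250 bases before the start of 15 of the 29 interferon genes found in the promoter table (51.7%). These 15 had a median ARLmon difference of -0.53, with 9 lower at an unadjusted p below 0.05, and the 14 without it a median of -0.33, with 7. This split is a description of few genes and says nothing of factor binding. The 14 genes of antigen presentation were also all below 0, with a median of -0.26 and 2 at an unadjusted p below 0.05. Without GC078612 the median was -0.43, with 13 at that p, and without GC078615 it was -0.18, with 0. In wild type 4 of the 14 fell, where 6.36% of all genes did, with a median of -0.40. Tap1, which encodes a subunit of the peptide transporter, differed by -0.49 ± 0.21 (unadjusted p = 0.026, edgeR). In GC078612 the antigen presentation median was 0.54, the highest of the 10 libraries, where the interferon median was below 0.

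Tubular injury genes were high in a single testosterone library, GC078612. Havcr1 (chromosome 11, 46735080 to 46779578), which encodes kidney injury molecule 1 of damaged proximal tubule, stood at 0.701, 0.428, 4.502, 1.32 and 0.825 CPM with vehicle and at 105, 0.937, 0.0748, 2.03 and 0.261 with testosterone. Apart from GC078612 the testosterone values overlapped those of vehicle. The fitted log2 difference of 3.75 ± 1.30 (unadjusted p = 0.00872, edgeR adjusted p = 0.774) was -0.83 without GC078612 and -1.56 with sample quality weights. Lcn2, the gene of the iron-trafficking lipocalin released by injured tubules, stood at 3.82, 3.85, 8.13, 3.44 and 5.33 CPM with vehicle and at 55.2, 6.21, 2.84, 6.59 and 8.36 with testosterone. Vcam1, an adhesion molecule gene, stood at 10.1, 6.84, 11.8, 14.9 and 10.8 CPM with vehicle and at 68.1, 10.8, 10.2, 12.7 and 8.10 with testosterone. In both genes GC078612 alone lay above the range of the other 9.

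Spp1, the osteopontin gene, stood at 2807, 2630.4, 2839, 2470.1 and 3017 CPM with vehicle and at 6924, 2482, 2527, 2103 and 2543 with testosterone, with GC078612 over the rest, GC078615 below the vehicle range and the other 3 testosterone libraries at its low end. The complement gene C3 was highest in GC078612 at 439 CPM, beside 149 to 252 in the other testosterone libraries and 76.5 to 183 with vehicle. The chemokine gene Cxcl1 and the fibrinogen genes Fgb and Fgg also had their highest testosterone value there, at 6.76, 10.9 and 35.5 CPM. Krt8, a keratin gene, was highest there too, at 104. Of the 21 injury genes 19 were higher and 2 lower with testosterone, 6 of them higher at an unadjusted p below 0.05 (1.97% of all genes), with a median of 0.48. In wild type 6 of the 21 fell, where 6.36% of all genes did, with a median of -0.63. Without GC078612, 8 were higher and 13 lower, 0 at that p, with a median of -0.08. In the same library the macrophage, T cell and proliferation lists had medians of 0.49, 0.68 and 0.51. The T cell median was also 0.46 in vehicle library GC078620 and 0.44 in testosterone library GC078613. In GC078612 the distal convoluted tubule median was -0.62 and the collecting duct median -0.29. Mitochondrial genes took 6.86% of counts there, as in GC078618, against 9.49% to 11.1% in the other 8. Whether any of these bears on the injury values was not tested.

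**Figure D4:**
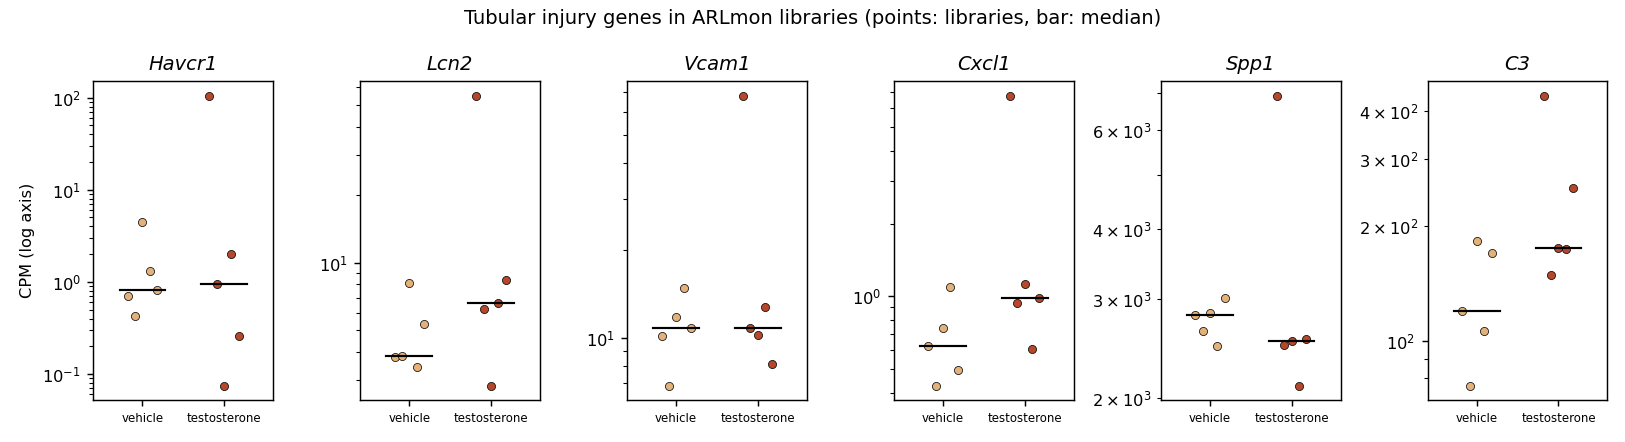
CPM of 6 tubular injury genes per ARLmon library, on log axes; points are libraries and bars group medians (n = 5). The single high testosterone point in each panel is GC078612, at 105 CPM for Havcr1 and 55.2 for Lcn2.

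Nuclear genes of the respiratory chain and of the ribosome had slightly lower values with testosterone, none called, and their extremes lay in 2 libraries. All 75 respiratory chain genes and all 81 ribosomal protein genes had a log2 difference below 0, with medians of -0.31 and -0.28, and 24 and 21 had an unadjusted p below 0.05. Of all genes, 48.8% were below 0 and 3.25% were lower at that p. In wild type the medians were -0.06 and -0.34, with 1 respiratory chain gene raised and 5 ribosomal protein genes lowered, where 6.36% of all genes were lowered. Cox5b, which encodes a subunit of cytochrome c oxidase, stood at 84.0, 149, 135, 88.5 and 153 CPM with vehicle and at 73.2, 77.2, 65.5, 44.7 and 85.5 with testosterone. GC078621 and GC078618 were highest and GC078615 lowest, and the groups overlapped (log2 -0.82 ± 0.25, unadjusted p = 0.00426, edgeR adjusted p = 0.774). Cox8a, another subunit gene, differed by -0.73 ± 0.24. The respiratory chain median was 0.56 in GC078618 and -0.47 in GC078615, and the ribosomal median 0.57 and -0.59, the extremes of the 10 libraries and of the first principal component. Without GC078615 alone the list medians were -0.23 and -0.19, with 6 and 8 genes at that p. Without GC078618 alone they were -0.19 and -0.17, with 5 and 4. Without GC078612, GC078615 and GC078618 the list medians were -0.13 and -0.13, with 0 genes at that p in either list. Even so, 73 of the 75 and all 81 were below 0 there. With sample quality weights the medians were -0.20 and -0.18, with 33 and 25 genes at that p. The 11 mitochondrially encoded genes tested had a median of -0.08, with none at that p.

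Antioxidant genes under the factor Nrf2 had a median of -0.21, 19 of 25 lower, with 6 lower and 1 higher at an unadjusted p below 0.05 (3.25% and 1.97% of all genes). Without GC078615 the median was -0.13, with 2 lower at that p, and without GC078618 -0.13, with 3. Gstp1, a glutathione S-transferase gene, stood at 25.8, 33.0, 22.7, 20.1 and 27.9 CPM with vehicle and at 20.1, 19.5, 18.6, 15.3 and 19.5 with testosterone. Its groups did not overlap, though GC078620 and GC078612 were nearly equal (log2 -0.48 ± 0.14, unadjusted p = 0.00299, edgeR adjusted p = 0.774). The list median was lowest in GC078615, at -0.37, and highest in GC078621, at 0.33.

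**Figure D5:**
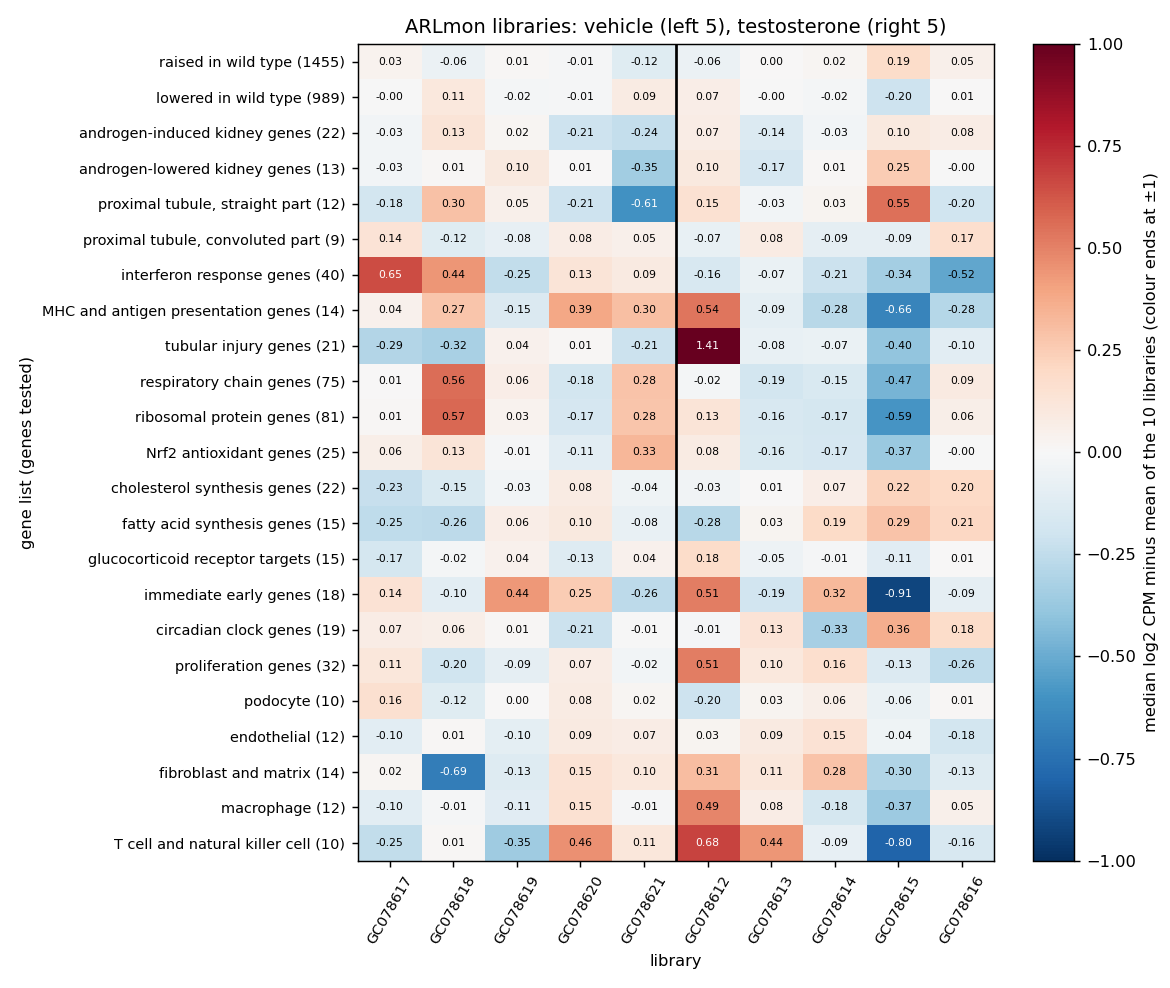
Median log2 CPM of 23 gene sets in each ARLmon library, minus each gene's mean over the 10 libraries; rows are lists with the number of genes tested, columns libraries, red above and blue below the mean. The darkest cells belong to single libraries, such as 1.41 for injury genes in GC078612, rather than to the 5 testosterone columns as a block.

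Steroid receptor genes and their partners were not called in ARLmon. The glucocorticoid receptor gene Nr3c1 differed by 0.07 ± 0.21, the mineralocorticoid receptor gene Nr3c2 by 0.02 ± 0.16 and the estrogen receptor gene Esr1 by 0.38 ± 0.24, or 0.17 without GC078615. The 20 chaperones and coregulators of steroid receptors had a median of 0.08, each with an interval inside 2-fold, and 0 at an unadjusted p below 0.05.

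Fkbp5, a chaperone gene with response elements shared by androgens and glucocorticoids, stood at 26.9, 31.1, 26.4, 26.4 and 36.1 CPM with vehicle and at 20.3, 26.0, 26.5, 36.3 and 37.4 with testosterone. The vehicle values lay within the testosterone range, with an interval of -0.59 to 0.59 on the log2 scale, while it rose by 1.42 ± 0.28 in wild type (difference between responses -1.42 ± 0.39, edgeR adjusted p = 0.0397). That call was lost without any one of 13 libraries, with an adjusted p of up to 0.0807. The glucocorticoid-induced gene Tsc22d3 differed by 0.23 ± 0.16. Of 15 glucocorticoid receptor targets tested, 7 were higher and 8 lower, with 1 at an unadjusted p below 0.05.

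Median differences of the markers of most kidney cell types lay near 0 in ARLmon. Median log2 differences were 0.06 for the 12 general proximal tubule markers, -0.01 for the 11 of the thick ascending limb, -0.07 for the 16 of the collecting duct, -0.07 for the 10 of podocytes and 0.05 for the 12 of endothelium. Slc34a1, the phosphate transporter gene of the proximal tubule, stood at 5025 ± 482 CPM with vehicle and 5126 ± 546 with testosterone. Markers of cells outside the kidney were low or uneven: the summed level of 8 adrenal genes was 0.769 to 35.8 CPM with vehicle and 0.888 to 2.35 with testosterone. That of 10 B cell and plasma cell genes was 25.6 to 295 and 20.1 to 202. All 6 red blood cell markers tested were lower, with a median of -0.30 and 0 at an unadjusted p below 0.05. Of all genes 48.8% were lower. The library medians of these markers ran from -0.99 to 0.85 within the testosterone group. Without GC078615, 4 were lower and 2 higher, with a median of -0.19. Of 10 adipocyte markers 7 were lower and 3 higher, with a median of -0.19. No gene was called in ARLmon, so none of the 18 marker lists could hold a called member. The straight-part list above had the largest number of wild type rises among them, 8 of 12.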

How the data were processed

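RNA of 20 kidney libraries was sequenced with a stranded mRNA kit, per the labels' protocols. The submitters' processing notes name FastQC 0.11.7, HISAT2, SAMtools 1.5, HTSeq, DESeq2 and the mm10 build, and the annotation and the strand setting of the counting are not given in the sources used here. The authors deposited raw counts per gene in 4 tables, each for a pair of groups, and 1 table of log2 values whose scaling is not stated. The count tables were joined by gene symbol into 24762 genes, and 12045 values in 1713 genes, absent from a library's table, were set to 0. Columns carry library codes that give the group, and 0 were without a group.

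The main test was the quasi-likelihood test of edgeR 4.0.16 (R 4.3.3) on the deposited counts, with TMM factors, 4 group means and 16 residual degrees of freedom. Its filter on low counts (filterByExpr) kept 15549 genes. A gene was called at a Benjamini-Hochberg adjusted p below 0.05. The SE is the size of the log2 difference over the root of F, and intervals are 95%. CPM values use the library sizes after TMM scaling. The script was tested on simulated data. Between libraries of 1 ARLmon group the chi-square of counts per degree of freedom ran from 5.23 to 55.8 over 20 pairs, so none was a copy of another.

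Named genes are Kap and Odc1, the 8 largest called wild type changes each way (at least 5 CPM, no overlap), the 8 smallest p each way in ARLmon (at least 5 CPM) and up to 4 members of each of 47 lists with the smallest p. The remaining 18 of 73 were chosen with their values known, and results for some genes are not reported here. The members and lists were chosen with earlier results of these data known, and no list was tested as a set. Promoter sequences came from RefSeq and positions from GENCODE M21, which need not be the authors' annotation.

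Alternatives were other scalings (RLE, library size alone), other filters, DESeq2 1.42.0, limma-voom (limma 3.58.1) with and without sample quality weights, robust edgeR, the 10 most abundant genes left out, the ARLmon libraries alone, limma on the deposited log2 values, and each library left out. Leaving out GC078612, GC078615 and GC078618 together was added after the data were seen. Figures were drawn with matplotlib 3.10.9.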

Additional observations from a re-analysis of the deposited data

Results flagged for a closer look

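A library stood apart in 25 of 146 ARLmon groups of 5 over the 73 named genes. Its gap to its nearest neighbour there passed Dixon's 95% limit for the range. In unselected, independent groups about 1 in 20, or 7.3, would pass. Many of these genes were chosen from these data and share their outlying library, so 7.3 is no chance baseline for them. GC078615 stood alone at the top of the testosterone group in 8, in CPM 0.0507 for Cntnap5a, 0.659 for Ctxn3, 24.6 for Slc22a30, 323 for Prlr, 204 for Slc7a12, 1361 for Hao2, 515 for Hmgcs1 and 68.3 for Sqle. The Cntnap5a value is a single read. GC078612 did so in 7, with 10.9 for Fgb, 35.5 for Fgg, 105 for Havcr1, 55.2 for Lcn2, 6924 for Spp1, 68.1 for Vcam1 and 6.76 for Cxcl1. GC078616 stood alone at the bottom with 5.82 for Ifit1 and 4.05 for Isg15.

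In the vehicle group, GC078618 stood alone at the top with 2.82 for Angptl7, 255 for Adh1 and 5869.8 for Slc34a1, GC078619 with 0.470 for Lipo2 and 4.502 for Havcr1, and GC078617 with 25.9 for Ifih1. GC078621 stood alone at the bottom with 45.9 for Slc5a8, and GC078619 with 16.9 for Tap1. These flags cover the named genes alone and not their lists. Without GC078615, 19 of 22 cholesterol synthesis genes were still higher with testosterone, with a median log2 difference of 0.12, against 0.14 with all libraries. Without GC078617 that median was 0.08.

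The response to testosterone differed between the genotypes for 741 genes, tested as the ARLmon minus the wild type difference on the log2 scale (edgeR), among them 36 named genes. The lowest values were -6.27 for Lipo2, -6.06 for Slco1a1, -5.58 for Ctxn3, -4.65 for Rnf180, -4.48 for Ccl28, -4.17 for Cyp4a12a, -3.95 for Angptl7, -3.85 for Acsm3, -3.28 for Srd5a2 and -3.00 for Hsd17b11. Further values below 0 were -2.97 for Odc1, -2.78 for Nudt19, -1.93 for Atp11a, -1.93 for Gusb, -1.93 for Adh1, -1.89 for Cyp2e1, -1.87 for Slc22a30, -1.76 for Kap, -1.61 for Cyp4b1, -1.42 for Fkbp5, -1.31 for Slc5a8, -0.92 for Hmgcs1 and -0.71 for Sec61g. Values above 0 were 4.46 for Slc7a12, 4.39 for Fgb, 4.32 for Ugt1a2, 4.13 for Prlr, 4.04 for Fgg, 3.39 for Kynu, 3.26 for Gc, 3.11 for Kcnip2, 2.83 for Cyp27b1, 2.74 for Hao2, 1.66 for Spp1, 1.56 for Slc22a8 and 0.87 for Slc14a1. Most belong to genes that testosterone changed in wild type, and Sec61g was called in neither genotype alone.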

How the results depend on the processing

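The count of genes called in ARLmon was 0 under all 32 alternatives, and its unadjusted counts below 0.05 moved from 813 to 1427 without GC078612, 1405 without GC078620, 1241 without GC078604, 521 without GC078621, 497 without GC078618, 350 without GC078615 and 1520 with sample quality weights. Leaving out each library in turn gave 0 to 0 called genes in ARLmon, 13252 to 13968 with an interval inside 2-fold, 1753 to 2644 called in wild type and 579 to 967 for the difference of responses. It gave medians of 0.03 to 0.11 for the genes raised in wild type and -0.09 to -0.02 for those lowered. The difference of responses was called for 1935 genes with limma-voom and sample quality weights, against 741, and the cause was not tested. Scaled by library size alone, the median wild type difference was -0.18 and 897 genes rose and 2687 fell, and with the deposited log2 values 907 and 2608. In ARLmon the median of all genes then was 0.03 and 0.04. Of 73 named genes 23 changed sign in ARLmon under at least 1 alternative, Havcr1 and Vcam1 among them. Of 36 called differences of responses 32 held under every alternative run, and those of Fgb, Fgg, Sec61g and Fkbp5 were lost under at least 1. DESeq2 gave no p for Havcr1 and Vcam1. No paired analysis was possible because the columns carry library codes and not the replicate numbers of the labels. Depth limits the genes with few reads, such as Lipo2 and Slco1a1, whose intervals are wide.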

Other observations

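Genes of cholesterol synthesis had higher values with testosterone in 19 of 22, none called, with a median log2 difference of 0.14 in ARLmon beside 0.01 for all genes. Hmgcs1, which encodes an early enzyme of that pathway, stood at 268, 285, 275, 308 and 226 CPM with vehicle (GC078617 to GC078621) and at 307, 342, 329, 515 and 357 with testosterone (GC078612 to GC078616). GC078615 lay far above the others, and the log2 difference of 0.44 ± 0.16 was 0.30 without it. In wild type Hmgcs1 rose by 1.36 ± 0.16. Sqle, which encodes squalene epoxidase, stood at 33.1, 45.4, 43.1, 42.0 and 37.7 CPM with vehicle and at 46.3, 48.6, 48.3, 68.3 and 50.9 with testosterone, without overlap (log2 0.38 ± 0.17, 0.27 without GC078615).

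Cyp27b1, which encodes the kidney enzyme that activates vitamin D, stood at 1.87, 14.2, 7.46, 4.71 and 8.14 CPM with vehicle and at 32.3, 16.2, 7.48, 15.7 and 17.2 with testosterone. The log2 difference was 1.29 ± 0.45 (unadjusted p = 0.00906, edgeR adjusted p = 0.774), against -1.53 ± 0.49 in wild type, where it fell. GC078612 was the highest library, and the ARLmon difference was 0.97 without it and 1.66 without GC078618. Among 18 immediate early genes 8 were higher and 10 lower, with a median of -0.04. Of them 2 were lower at an unadjusted p below 0.05, where 3.25% of all genes were. The differences of these, Jund and Ier3, were -0.90 ± 0.32 and -0.47 ± 0.21 on the log2 scale (unadjusted p = 0.00945 and 0.0329, edgeR). Without GC078615, 11 of the 18 were higher and 7 lower, with a median of 0.14. The 19 clock genes had a median of 0.14 and the 11 polyamine genes one of -0.07, with 0 of either list at an unadjusted p below 0.05. The adrenal gene Star was highest in vehicle library GC078620, at 11.4 CPM, against 0.712 to 1.96 with testosterone.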
